A study of Mus musculus with 19 samples.

Results

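The carboxylesterases described here are the 15 genes, measured by 16 probes, whose symbol begins with Ces and a digit in a table of 23568 probes and 18788 gene symbols of mouse liver. The family was taken up because Ces1e was higher in 5-lipoxygenase knockout than in wild-type livers on chow, so the values of that comparison chose it and are given below as a description, with no test. The mice were wild-type B6 mice or 5-lipoxygenase knockout mice (5LO KO), 20 weeks old, fed for 16 weeks either normal chow or an atherogenic diet rich in fat, cholesterol and cholate. On chow both genotypes had 5 mice, and on the atherogenic diet wild type had 4 and knockout 5. Each of the 19 mice had its own array, where its liver RNA, in Cy5, was hybridised with a pool of wild-type livers from its diet in Cy3, made from 5 chow mice or 4 atherogenic mice. The sources used here do not say how the knockout was made, what sex the mice had or whether the controls were littermates. The letters A to E tell the mice of a group apart and have no order.

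Carboxylesterases are enzymes, mostly of the endoplasmic reticulum of hepatocytes, that split ester and amide bonds in drugs and in lipids such as triacylglycerol and cholesteryl ester. In mouse liver some of them release the stored triacylglycerol that is used to build very low density lipoprotein, and others clear xenobiotics. In mice the genes lie in clusters of close copies, named as groups Ces1 to Ces5. Gene order in the GRCm38.p6 assembly places all 20 of them, 19 of them protein-coding, on chromosome 8, in a run from Ces1a to Ces1h followed by Ces5a, and a run from Ces2a to Ces2h followed by Ces3a, Ces3b and Ces4a. Ces1a, Ces1b, Ces1h, Ces2b and the pseudogene Ces2d-ps were not analysed here. The sources used here do not give the probes' sequences, so signal shared between close copies cannot be told apart.

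Promoters from RefSeq (GRCm38.p6, 250 bases before to 50 after the start) were matched for 12 of the 15 genes, and those of Ces1e and Ces3b are shown because Ces1e chose the family and Ces3b, on the other run of genes, changed most with the diet in wild type among the bright members. The sequences read 5′ to 3′ on the gene's strand, Ces1e at chr8:93229570-93229869 (minus strand) and Ces3b at chr8:105083505-105083804 (plus strand). Capitals mark matches to TATAAA (the TATA box), GTTAAT (a half-site of the liver factor HNF1) and CCAAT.
Ces1e: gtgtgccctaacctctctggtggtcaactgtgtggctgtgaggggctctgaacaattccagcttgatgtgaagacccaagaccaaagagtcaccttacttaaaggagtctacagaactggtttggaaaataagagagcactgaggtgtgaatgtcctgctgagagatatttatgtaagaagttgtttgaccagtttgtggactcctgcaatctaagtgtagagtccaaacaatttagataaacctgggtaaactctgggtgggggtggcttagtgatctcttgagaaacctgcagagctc
Ces3b: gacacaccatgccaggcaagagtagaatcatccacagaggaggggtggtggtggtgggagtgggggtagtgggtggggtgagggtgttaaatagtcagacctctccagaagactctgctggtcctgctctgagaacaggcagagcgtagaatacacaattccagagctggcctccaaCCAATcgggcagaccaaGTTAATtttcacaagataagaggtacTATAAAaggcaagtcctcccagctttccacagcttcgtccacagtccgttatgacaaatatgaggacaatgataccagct
The Ces3b promoter held TATAAA from position -30 to -25, GTTAAT from -56 to -51 and CCAAT from -73 to -69, counted from the start site. The letters of Ces1e in this window matched none of these motifs, nor AGGTCA, the half-site of nuclear receptors. On either strand, TATAAA was present in 2 of the 12 promoters (Ces1g and Ces3b) and in 13.6% of 32851 promoters of this length, GTTAAT in 2 (Ces3b and Ces5a) against 7.1%, AGGTCA in 3 (Ces2a, Ces2h and Ces4a) against 16.3%, and CCAAT in 8 against 37.4%. A match is a description of letters, and no binding was measured.

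Of the 16 probes, 11 reached an intensity of 0.2 on some array, a limit chosen after the values were seen, and 5 stayed below it. The dim ones were those of Ces2f, Ces2h, Ces4a, Ces5a (an esterase known as cauxin from cat kidney) and the second probe of Ces2c, with highest intensities from 0.03 to 0.11, where rounding of the deposited values makes ratios coarse. Ces1c, which encodes an esterase secreted into plasma, was bright where measured (32.67 to 51.14) but had values on 12 of the 19 arrays and on 1 array of the atherogenic wild-type group, so it was not tested. The remaining 15 probes had at least 3 values in each group, and 10 of them were bright. Intensity depends on the probe, and no probe's level is set against another's.

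The 19 arrays gave between 22763 and 23511 measured probes, and their number limits the precision. Alox5, the gene for 5-lipoxygenase, had 1 probe, which was dim and read 0.03 to 0.05 in wild type and 0.03 to 0.07 in knockout on chow. It read 0.05 to 0.09 and 0.06 to 0.11 with atherogenic feeding, so it did not check the genotype labels. Alb, the hepatocyte gene for albumin, read 1.34 to 3.41 over all mice. Summed intensities of marker probes for other tissues were 0.04 to 0.12 for pancreas, 0.07 to 0.19 for adipose tissue, 0.16 to 0.45 for kidney and 1.83 to 4.59 for intestine, where 1 probe, that of the fatty acid-binding protein Fabp2, was brighter than 92% of all probes and the other intestinal probes were brighter than at most 50.8%. Knockout mouse D on chow stood apart, with an SD of its log2 ratios over all probes of 1.01, against 0.318 to 0.538 in the other chow knockouts.

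Ces1e encodes egasyn, the esterase that holds β-glucuronidase in the endoplasmic reticulum. Its mouse intensity was 14.43, 9.37, 12.64, 12.94 and 12.6 in wild-type mice A to E on chow, and 18.21, 28.12, 18.4, 54.42 and 21.94 in the chow knockouts. With atherogenic feeding it was 4.06, 8.21, 8.33 and 5 in wild type, and 12.34, 13.11, 13.56, 9.39 and 10.29 in knockout. Within each diet every knockout mouse lay above every wild-type mouse, and knockout D on chow was far above the others. The pool read 10.15 to 12.49 over the chow arrays and 5.9 to 7.77 over the atherogenic arrays. After normalisation of the mouse channel the group means on the log2 scale were 4.56 ± 0.58 in knockout on chow, 3.55 ± 0.23 in wild type on chow, 3.52 ± 0.26 in knockout on the atherogenic diet and 2.62 ± 0.55 in wild type on that diet (mean ± SD, n = 5, 5, 5 and 4). In that order, the values of chow wild type and atherogenic knockout overlapped, and the other neighbours did not, the last pair by a narrow gap between 3.13 and 3.15.

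**Figure D1:**
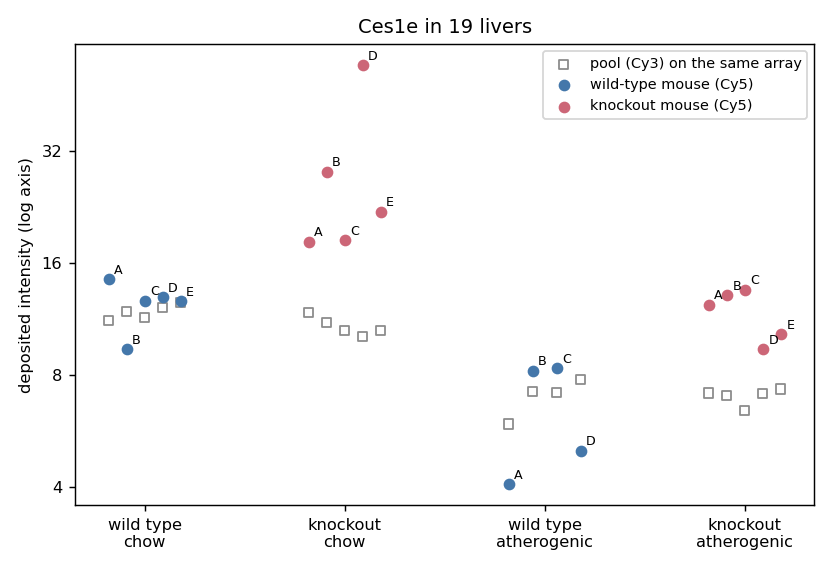
Deposited intensity of the Ces1e probe (log axis) for each mouse, as filled points named A to E, and for the wild-type pool on the same array, as open squares, in the 4 groups. Knockout mice lie above wild-type mice of their diet, from 18.21 on chow and from 9.39 on the atherogenic diet, and the pool is lower on the atherogenic diet (5.9 to 7.77) than on chow (10.15 to 12.49).

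On chow, the comparison that chose the family, the log2 ratio of Ces1e to the pool was 1.25 ± 0.71 in knockout and 0.06 ± 0.26 in wild type (mean ± SD, n = 5 each), a difference of 1.20, or 2.29-fold. Without knockout mouse D it was 0.90. The genotypes did not overlap on 2 of the 15 probes with higher knockout values, Ces1e and Ces1d, and on 2 with lower ones, Ces3b and the dim Ces5a. Over all 23344 probes tested, 1.74% did not overlap with knockout higher and 1.65% with knockout lower. Ces1d, a triacylglycerol hydrolase that supplies lipid for very low density lipoprotein, differed by 0.72, with intensities of 29.52 to 50.57 in wild type and 37.22 to 63.91 in knockout. Its intensities overlapped while its ratios did not. The same pool read 36.25 to 39.57 for Ces1d on the wild-type arrays and 24.88 to 34.95 on the knockout arrays, so the ratio difference also holds a difference in the pool channel. After normalisation of the mouse channel Ces1d averaged 5.06 in wild type and 5.37 in knockout, and the genotypes overlapped. These values are a description, since the contrast chose the family.

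Ces3b and Ces3a, liver esterases of neighbouring genes, went the other way on chow. Ces3b read 0.78, 1.11, 1.45, 0.82 and 1.47 in wild-type and 0.74, 0.63, 0.68, 0.08 and 0.33 in knockout mice A to E, so that all knockout values lay below all wild-type values and mouse D was again the extreme one. The difference in log2 ratio was -1.46, and -0.92 without mouse D. Ces3a read 0.73, 1.42, 1.91, 1.1 and 2.22 in wild type against 1.32, 0.74, 0.85, 0.16 and 0.57 in knockout, which overlapped. Its difference was -1.09, and -0.63 without mouse D. Of the Ces2 group, whose members also hydrolyse glycerolipids, Ces2c differed by -0.61, Ces2a by -0.03, Ces2e by 0.32 and Ces2g by 0.61, and the ratios of their genotypes overlapped. Without knockout mouse D, whose ratio was 1.86, Ces2g differed by 0.35. On that array the mouse read 4.11 and the pool 1.13, where the pool read 1.56 to 2.89 on the other chow arrays. After normalisation of the mouse channel Ces2g measured 0.92 to 1.42 in wild type and 1.48 to 2.29 in knockout. Without knockout mouse A or B, the ratios of Ces2e differed by 0.21, and without E by 0.56, while those of Ces2a ranged from -0.18 to 0.14 with a mouse left out. Ces1f (0.15) and Ces1g (-0.11), both known to act on triacylglycerol in mouse liver, overlapped too. Among the 10 bright probes 5 differences were positive and 5 negative. Summed intensities of 7 neutrophil marker probes were 0.38 to 0.95 in wild type and 0.75 to 4.57 in knockout on chow, and those of 8 hepatocyte marker probes 37.48 to 69.5 and 26.15 to 59.18. Their part in these values was not tested.

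**Figure D2:**
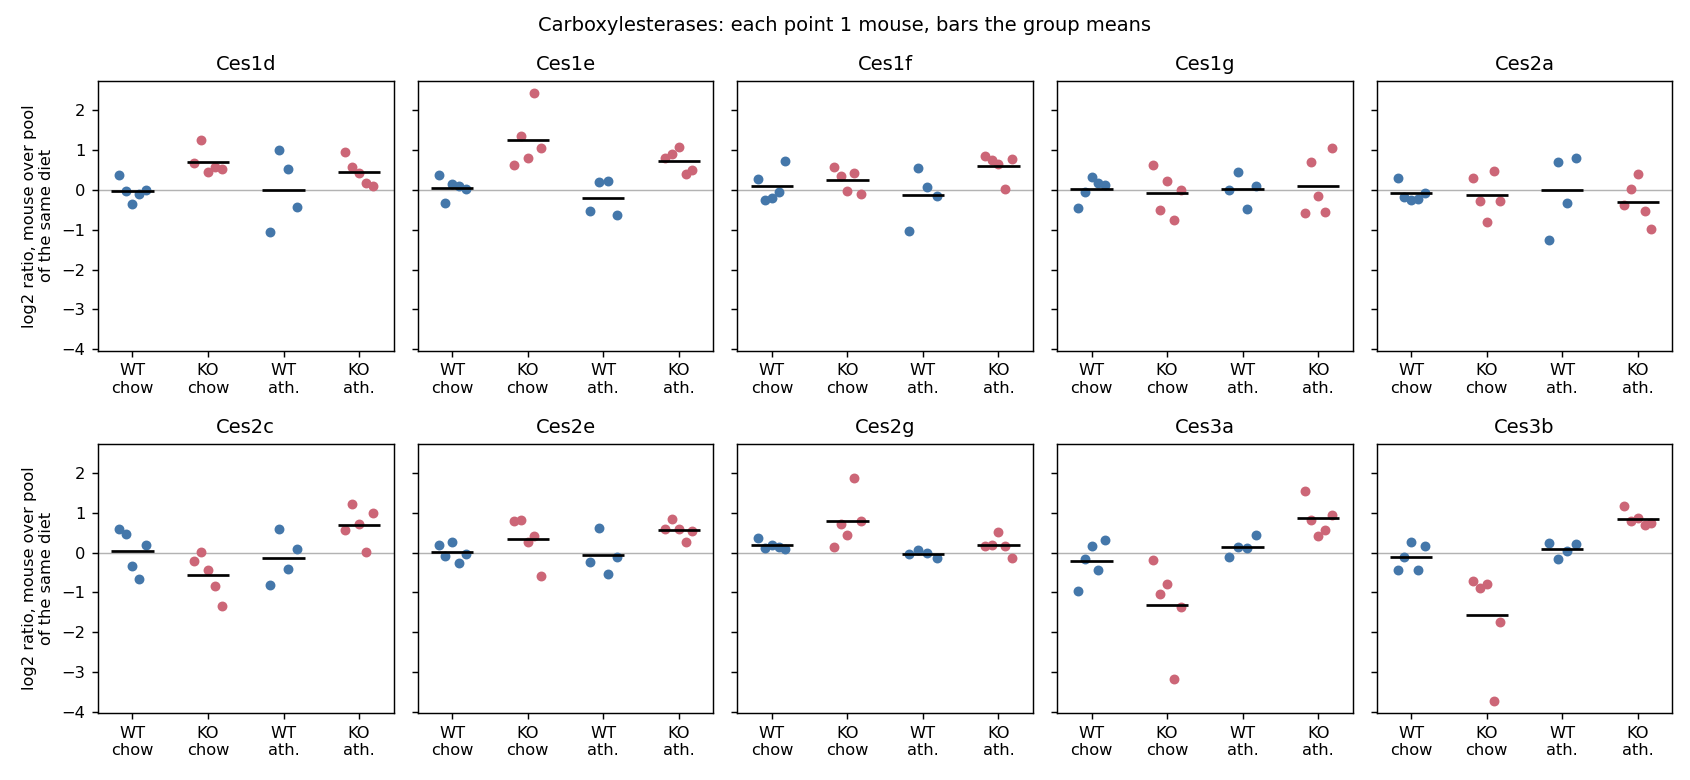
Log2 ratio of each mouse to the wild-type pool of its diet for the 10 bright carboxylesterase probes with enough values, with 1 point a mouse and bars at the group means (WT, wild type; KO, knockout; ath., atherogenic diet). Ces1e is high in knockout on both diets, while Ces3b is lowest in chow knockouts (mean -1.57) and above 0 in every atherogenic knockout (0.68 to 1.17).

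On the atherogenic diet, in mice that did not choose the family, the genotypes were compared with limma over all probes. None of the 15 carboxylesterase probes passed (0 at a Benjamini-Hochberg adjusted p under 0.05), where 0.0214% of all probes did, and 5 of 15 had an unadjusted p under 0.05, against 10.7% of all probes. Ces1e measured 0.73 ± 0.28 in knockout (n = 5) and -0.19 ± 0.46 in wild type (n = 4), a difference of 0.92 on the log2 scale (SE 0.29, limma adjusted p = 0.268), or 1.90-fold with a 95% interval from 1.24 to 2.90. It was higher in all 5 knockout mice than in any of the 4 wild-type mice. Fitted on the 9 atherogenic mice alone, Ces1e had a limma adjusted p of 0.135.

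The ratios of Ces3b did not overlap either, at 1.17, 0.80, 0.87, 0.68 and 0.75 in knockout and 0.25, -0.17, 0.04 and 0.22 in wild type. All knockout mice were above all wild-type mice, the opposite order to chow. The difference was 0.77 (SE 0.43, limma adjusted p = 0.542). Fitted on the 9 atherogenic mice alone, whose SDs were 0.19 in both genotypes against 1.28 in chow knockout, the adjusted p was 0.0732. Such a lack of overlap with knockout higher was seen for 2 of 15 carboxylesterase probes, Ces1e and Ces3b, and for 2.33% of all probes. Positive differences were found for 13 of the 15 probes and 9 of the 10 bright ones, with a median of 0.44 and 0.67, against a median of 0.00 and 50.3% positive over all probes. Probes of close copies may share signal, so these are not independent counts.

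Among the other bright members on this diet, Ces2c, an esterase that hydrolyses acylglycerols, measured 0.84 (limma adjusted p = 0.382), with knockout ratios of 0.02 to 1.21 and wild-type ratios of -0.82 to 0.59. Ces1f measured 0.75 (adjusted p = 0.334), Ces3a 0.71 (adjusted p = 0.571) and Ces2e 0.63 (adjusted p = 0.388). Their genotypes overlapped. Ces1d measured 0.44 with a 95% interval from -0.22 to 1.097, Ces2g 0.22 with an interval from -0.27 to 0.70, and Ces1g 0.07 with an interval from -0.63 to 0.77. Ces2a, which hydrolyses triacylglycerol in hepatocytes, measured -0.28 with an interval from -1.05 to 0.49. Several of these values rested on wild-type mouse A or B. Without A, Ces1d measured 0.08, Ces1f 0.45 and Ces2a -0.69, and without B they measured 0.77, 0.98 and -0.04. Without wild-type mouse D, Ces1d measured 0.29 and Ces2a -0.006. Ces2a measured -0.46 without knockout mouse C and -0.11 without E, and Ces2g 0.14 without C.

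The diet was compared in the mouse channel, because the ratios on the diets are against different pools. In wild-type livers Ces3b fell on the atherogenic diet and Ces1e was lower too. By limma 2 of 15 carboxylesterase probes passed, with 2 lower and 0 higher, and without Ces1e, whose chow values helped to choose the family, 1 of 14. Over all probes 2.54% were lower and 4.62% higher. An unadjusted p under 0.05 was found for 5 of the 15 probes and 23.6% of all probes, and 3 of the 15 (Ces1e, Ces3a and Ces3b) had all atherogenic mice below all chow mice, against 7.47% of all probes. After normalisation 1 of the 15, the dim Ces2h, had all atherogenic mice above all chow mice, against 6.69% of all probes. Ces3b read 0.78 to 1.47 in the 5 chow mice and 0.44, 0.32, 0.38 and 0.43 in the 4 atherogenic mice, and these groups did not overlap. It fell by 1.65 on the log2 scale (SE 0.42, limma adjusted p = 0.0215), so that chow was 3.13-fold higher. Ces1e measured -0.93, with chow 1.90-fold higher, also with no overlap. Its limma adjusted p of 0.0431 (SE 0.27) is not independent evidence, since the chow wild-type mice also took part in the comparison that chose Ces1e.

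The wild-type calls were lost when some single mice were left out. Without any 1 of chow mice A, C, D or E or atherogenic mice A or D the adjusted p of Ces1e lay between 0.0723 and 0.181, with differences from -0.72 to -0.94. Without chow mouse C or E or atherogenic mouse B that of Ces3b lay between 0.0523 and 0.0721. The difference of Ces3b itself stayed between -1.74 and -1.53 whichever mouse was left out. The fit shared its spread over all groups, and the SD of Ces3b was 1.28 in chow knockout, 0.39 in chow wild type and 0.22 in atherogenic wild type. The pools, 1 per diet and so without a test, gave atherogenic minus chow values of -1.62 for Ces3b, -1.27 for Ces3a, -0.97 for Ces1f, -0.69 for Ces1e and 0.40 for Ces1g in log2 intensity. They were made from wild-type livers and are not separate evidence from wild-type mice.

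Other members in wild type did not pass. Ces3a read 0.57 to 0.86 on the atherogenic diet and 0.73 to 2.22 on chow, ranges that overlapped as deposited but not after normalisation, where it measured -1.101 (adjusted p = 0.105). Ces1f measured -0.88 (adjusted p = 0.0661), and it passed with -1.51 (adjusted p = 0.00453) when each array was only centred on its median. Ces2c measured -0.63 (adjusted p = 0.257), Ces2a 0.40, Ces1g 0.33, Ces2g -0.19, Ces1d 0.03 and Ces2e -0.002. Ces1d and Ces2a turned to -0.70 and -0.29 with median centring, so their directions depend on the scaling.

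In knockout livers 0 of the 14 carboxylesterase probes tested by limma passed for the diet, where 9.61% of all probes did, and 3 had an unadjusted p under 0.05, against 27.1% of all probes. Ces1e, given without a test because the chow knockout mice chose it, differed by -1.04, and by -0.79 without chow mouse D. Its groups did not overlap. Ces3b and Ces3a measured 0.60 (adjusted p = 0.352) and 0.68 (adjusted p = 0.258), and 0.05 and 0.25 without chow mouse D. Ces2c measured 0.67 (adjusted p = 0.168), Ces1g 0.46, Ces2a 0.44, Ces2e 0.38, Ces1f -0.39, Ces2g -0.28 and Ces1d -0.05. Whether the diet's effect on Ces3b differed between wild type and knockout was not tested, since it contains the chow comparison of genotypes.

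The 5 dim probes had intensities at which a step of rounding moves the ratio, and none passed in a tested comparison (0 by limma). Ces2h differed between genotypes by -0.44 on chow and by 0.24 with atherogenic feeding, and between diets by 0.79 in wild type (adjusted p = 0.162) and 0.41 in knockout. Its deposited intensities in wild type, 0.0032 to 0.00714 on chow and 0.00642 to 0.02 on the atherogenic diet, overlapped. Ces5a differed by -0.93 and 0.73 (adjusted p = 0.457) between genotypes and by 0.33 and 1.54 (adjusted p = 0.0754 in knockout) with the diet. Ces4a differed by -0.28 and -0.60 (adjusted p = 0.5) between genotypes and by -0.48 and -0.33 with the diet, and Ces2f by 0.35, 0.26, -0.18 and -0.05 in the same order. The second probe of Ces2c differed by 0.04, 0.13, -0.41 and -0.48, and thus did not follow the brighter Ces2c probe in knockout, where that measured 0.67 with the diet.

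**Figure D3:**
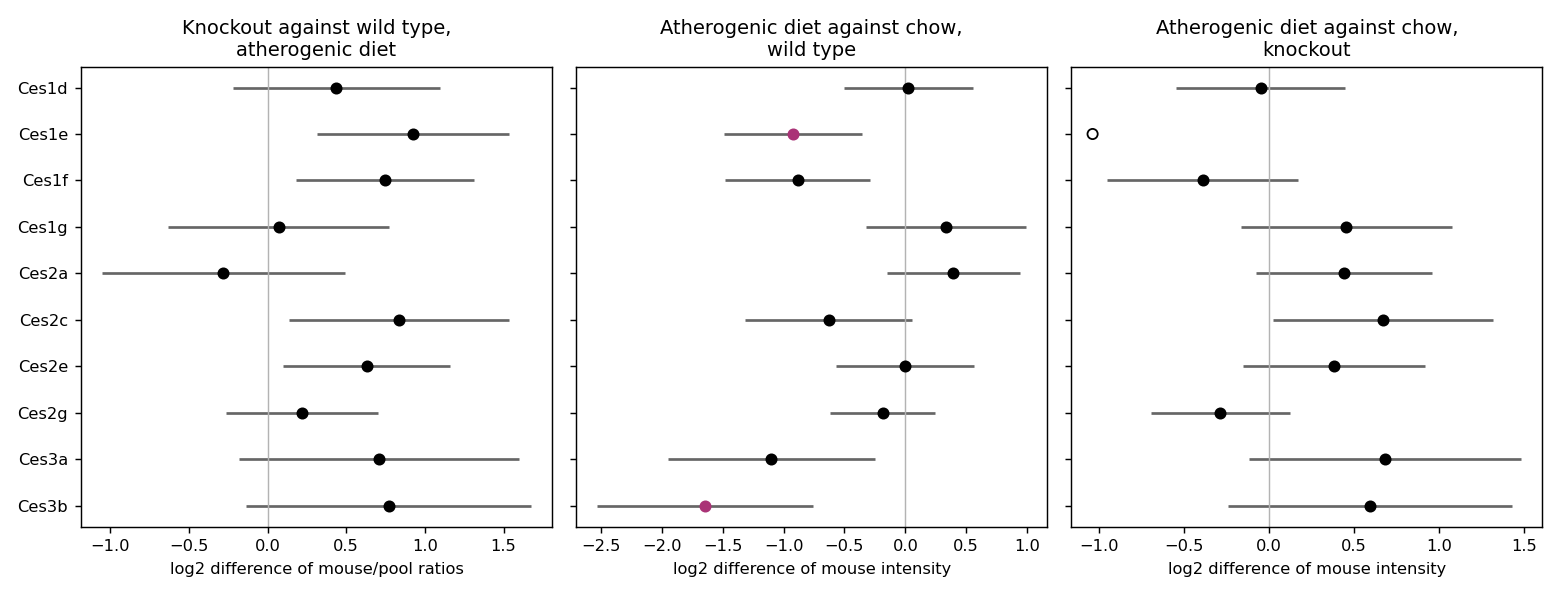
Log2 differences with 95% intervals for the 10 bright probes in the 3 tested comparisons, where purple marks an adjusted p under 0.05 and the open circle marks Ces1e in knockout, given without a test. Only Ces1e (-0.93) and Ces3b (-1.65) are purple, both for the diet in wild type, where Ces1e shares its chow mice with the comparison that chose it.

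**Figure D4:**
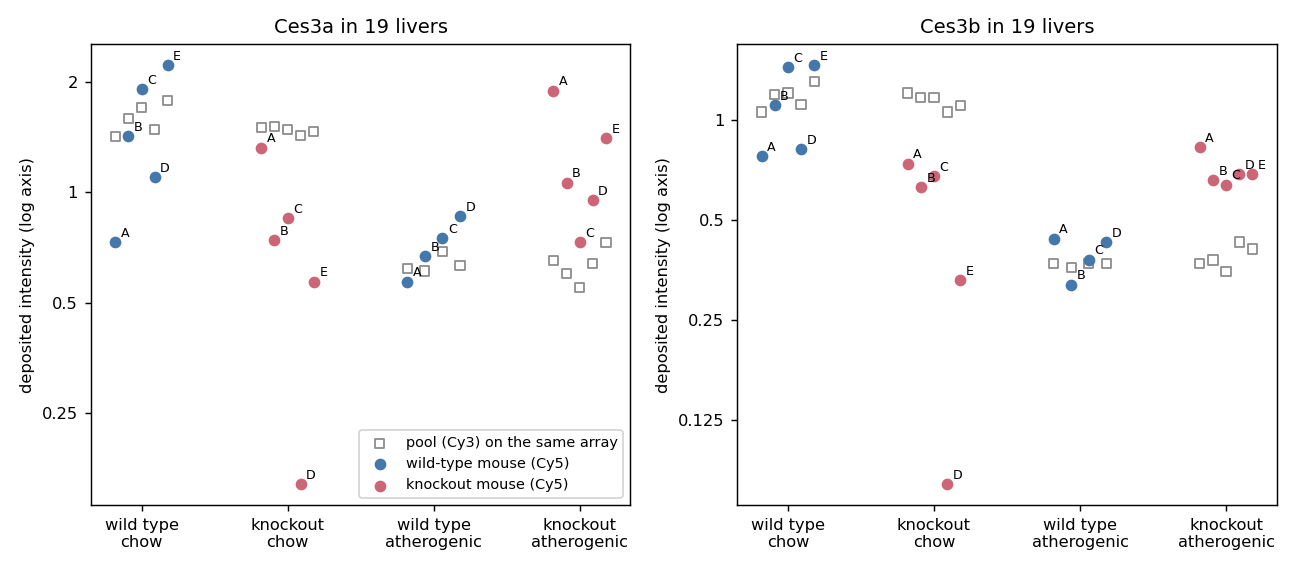
Deposited intensity of the Ces3a and Ces3b probes (log axis) for each mouse, as filled points, and the pool on its array, as open squares. Ces3b knockout mice lie below wild type on chow (0.08 to 0.74 against 0.78 to 1.47) and above it on the atherogenic diet (0.64 to 0.83 against 0.32 to 0.44).

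Cell markers moved with the diet in both genotypes. Over all probes 4.62% rose and 2.54% fell in wild type, and 9.61% passed in either direction in knockout. Of 9 measured macrophage marker genes 7 rose in wild type and 7 in knockout, and the sums of their probes were 9.86 to 16.35 in wild type and 6.67 to 12.61 in knockout on chow, against 24.73 to 33.67 and 24.62 to 32.86 on the atherogenic diet. Of 10 measured hepatocyte marker genes 1 rose and 0 fell in wild type, and 2 rose and 0 fell in knockout, with sums of 50.94 to 62.24 and 53.78 to 63.42 on the atherogenic diet. Among 7 stellate cell markers 2 rose in each genotype, the collagen genes Col1a1 and Col1a2. Of 7 neutrophil markers 4 rose in wild type and 0 in knockout. Neutrophil sums on the atherogenic diet were 2.2 to 5.2 in wild type and 1.01 to 25.86 in knockout (medians 3.815 and 2.17). Their medians on chow were 0.49 and 1.34. With that spread, the 0 does not show that knockout livers lacked a rise. The part of these cell types in the values of Ces1e and Ces3b was not tested. In whole liver, fewer cells of a type and less RNA per cell cannot be told apart. On the atherogenic diet none of these marker lists held a gene that passed between the genotypes (0 by limma), where 0.0214% of all probes did.

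Gusb, the β-glucuronidase that egasyn holds in the endoplasmic reticulum, read 0.28 to 0.39 in wild type and 0.11 to 0.39 in knockout on chow, and 0.67 to 1 and 0.71 to 1.07 on the atherogenic diet. It rose with the diet in wild type by 1.02 (SE 0.27, limma adjusted p = 0.0266) and in knockout by 1.47 (SE 0.26, limma adjusted p = 0.00148), while Ces1e was lower on that diet in both genotypes. Between genotypes Gusb differed by 0.23 on the atherogenic diet (adjusted p = 0.775) and, as a description, by -0.31 on chow. Knockout mouse D on chow had a log2 ratio of -1.54. The other chow knockouts lay between -0.13 and 0.20, and chow wild type between -0.17 and 0.24. After normalisation mouse D measured -3.08 and the other chow knockouts -1.55 to -1.23. The chow difference and the rise in knockout thus both hold the low value of mouse D. Of 9 measured genes for partners and retention in the endoplasmic reticulum, Gusb was the 1 that rose in wild type and 0 fell. The shares over all probes were 4.62% higher and 2.54% lower in wild type, and 9.61% either way in knockout. In knockout Gusb rose and Pdia4, a protein disulphide isomerase, fell by 0.95 on a dim probe, while its brighter probe measured -0.45 (adjusted p = 0.215).

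Of 27 measured genes for other lipid ester hydrolases, 2 rose and 3 fell with the diet in wild type. In knockout 2 rose and 3 fell. Among all probes 4.62% rose and 2.54% fell in wild type, and 9.61% passed either way in knockout. Lpl, lipoprotein lipase, rose by 4.59 in wild type and 3.86 in knockout. The genes that fell were Mgll, monoacylglycerol lipase (-0.73 and -0.63), Abhd6, which also hydrolyses monoacylglycerol (-1.14 and -0.82), and Acot4, a peroxisomal acyl-CoA thioesterase (-1.42 and -0.89). Nceh1, a cholesteryl ester hydrolase measured on a dim probe, rose by 1.11 in wild type, and Abhd12, a lysophospholipase, by 0.48 in knockout on 1 of its probes. The list's median difference was -0.05 in wild type and -0.06 in knockout, against -0.04 and -0.01 over all probes. None of these genes passed between genotypes on the atherogenic diet (0 of 27 by limma), where 0.0214% of all probes did.

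Of 12 measured genes for lipoprotein assembly and lipid droplets, 0 rose and 2 fell with the diet in wild type, and 0 passed in knockout. Mttp, the transfer protein that loads lipid onto apolipoprotein B, fell by 0.72 in wild type and measured -0.59 in knockout (adjusted p = 0.053). Fitm1, a lipid droplet protein, fell by 1.71 in wild type and measured -0.96 in knockout (adjusted p = 0.176). Of 24 measured genes for nuclear receptors that control carboxylesterases and for their targets, 3 rose and 3 fell in each genotype. Cyp8b1, the sterol 12-hydroxylase of bile acid synthesis, measured -4.96 in wild type and -3.79 in knockout, and Cyp4a14, a target of PPARα, -1.04 and -1.14. Cyp2c55 rose by 2.16 and 2.60. In wild type Nr0b2, the repressor induced by bile acids through FXR, rose by 1.32, and the dim Cyp4a10 by 0.85, and Cyp7a1, the rate-limiting enzyme of bile acid synthesis, fell by 2.15. In knockout Nfe2l2, the oxidative stress regulator, rose by 1.43, Cyp3a11, a target of PXR, rose by 1.96, and Nr1i3, the receptor CAR, fell by 0.58. Between genotypes on the atherogenic diet 0 of the 12 and 0 of the 24 passed, where 0.0214% of all probes did. With the diet 4.62% of all probes rose and 2.54% fell in wild type, and 9.61% passed either way in knockout.

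The named genes whose mouse intensity followed that of Ces1e most closely over the 19 mice were chosen by Pearson's r among 9115 candidates brighter than the median. They were Fkbp8, an immunophilin of the mitochondrial outer membrane (r = 0.939), Uqcr11 (0.938), Clpb, a mitochondrial disaggregase (0.933), Narfl, a factor for cytosolic iron-sulphur proteins (0.925), and Fam73b (0.922). The points share arrays, groups and normalisation, so these values are a description. Uqcr11, a small protein of respiratory complex III, averaged 3.87 in chow knockout, 3.29 in chow wild type, 3.23 in atherogenic knockout and 2.79 in atherogenic wild type, the same order of groups as Ces1e. The other named genes had this order too, which the choice by r with Ces1e favours.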

How the data were processed

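Liver RNA of 19 mice was measured on 2-colour arrays, after extraction with Trizol and amplification of 100 ng in 2 rounds, per the labels' protocols, and, per the submitters' processing notes, the arrays were scanned into values by Agilent Feature Extraction 8.5.1.1. The deposited table holds, per the file headers, a pool intensity, a mouse intensity and a p-value for each array; the sources used here do not give background correction, dye normalisation, slide or scan, and the p-values were not used. The deposited value table holds log10 ratios, which matched the table's mouse over pool within 0.00497. Columns match groups but not single samples, and 0 columns of other samples were present.

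Genotypes were compared on log2 ratios as deposited, and diets on log2 mouse intensity after loess and Aquantile normalisation, with limma 3.58.1 (R 4.3.3), using lmFit and eBayes on all 4 groups together (probes with at least 3 values in each group, Benjamini-Hochberg over 23344 probes, threshold 0.05). SE is limma's moderated standard error. On simulated arrays of 23344 probes with 50 changed per fold size, 2-fold changes were recovered for 60% of probes between genotypes on the atherogenic diet, 60% for the diet in wild type and 72% in knockout, and 1.5-fold changes for 22%, 20% and 22%. The simulated spreads were those of the ratios, averaged over the groups for each probe. The diet was fitted on mouse intensity, so the rates for the diet do not describe those fits. The simulated arrays also held 4-fold and 8-fold changes, while 5 probes passed between genotypes on the atherogenic diet. The adjusted threshold gets stricter when fewer probes change, so 60% is not a recovery rate for that comparison. The lowest correlation between arrays of 1 pool was -0.33; the direction was kept, as the labels state the dyes. No pair of arrays held identical values (0 pairs).

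All probes of the family are described. From the related lists, all genes past the threshold in a tested comparison are named, and Gusb. A limit of 5 per list and comparison, by lowest p, was planned, and the nuclear receptor list exceeds it. As similar genes, the 5 with the highest r with Ces1e are named, leaving out clone and predicted names. Members and lists were chosen with earlier results of these data known. The alternatives were other normalisations, a pseudocount of 0.05, only probes above the median intensity and robust variances. Others were the atherogenic mice alone, a replicate block and each mouse left out. No batch could be examined, since slide and scan are not given.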

Additional observations from a re-analysis of the deposited data

Results flagged for a closer look

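Of 42 groups of mice and probes examined, 1 was flagged for a mouse far from the others, by its gap to the nearest mouse over the range of the group. Chow knockout mouse D, the extreme one for Ces1e and Ces3b, was not flagged by this rule. Ces1f in atherogenic knockout mouse D had a log2 ratio of 0.033, while the other 4 mice lay between 0.66 and 0.84. Chance gives such a gap in about 1 of 20 groups.

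For Ces2c and Ces3b every knockout mouse lay below the wild-type mean on chow, and every knockout mouse lay above it on the atherogenic diet. The knockout effect on the atherogenic diet minus that on chow was 1.45 for Ces2c (-0.61 on chow and 0.84 on the atherogenic diet). For Ces3b it was 2.23 (-1.46 and 0.77). The difference was not tested for either gene, since the chow comparison chose the family.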

How the results depend on the processing

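Between genotypes on the atherogenic diet the count of carboxylesterase probes that passed was 0 under every alternative run, while Ces1e ranged from 0.78 to 1.06 with adjusted p from 0.0724 (quantile normalisation of the ratios) to 0.558 (a mouse left out). All probes passing numbered 5 in the reported fit, 20 with quantile normalisation and 17 with the pseudocount. They numbered 12 with only probes above the median intensity and 8 with the atherogenic mice alone. The replicate numbers of the value table did not pair the mice (correlations of deviations from -0.06 to 0.11), and with them as a replicate block 0 probes of the family and 3 of all passed, with Ces1e at 0.94 (adjusted p = 0.303). The chow value of Ces1e ranged from 0.90 to 1.35. With quantile normalisation of the ratios the chow differences were -0.86 for Ces3b, -0.56 for Ces3a and 0.25 for Ces2g. Under it Ces1g turned to 0.005 and Ces2a to 0.080 on chow, and with a mouse left out Ces1g ranged from -0.28 to 0.061. In wild type the diet's count of 2 ranged from 0 to 2 with a mouse left out and was 3 with median centring, where Ces1f was added. In knockout it ranged from 0 to 1, the 1 being the dim second probe of Ces2c without chow mouse C. Without atherogenic mouse B, Ces1f passed in wild type (adjusted p = 0.0176). Some directions turned. In wild type Ces1d (0.03 as reported) was -0.70 and Ces2a (0.40) -0.29 with median centring, Ces1d was -0.038 and Ces2e 0.021 with quantile normalisation of the mouse channel, and Ces2e was 0.00246 with the pseudocount. With a mouse left out, Ces1d ranged from -0.21 to 0.32, Ces2e from -0.25 to 0.15 and Ces2g from -0.31 to 0.027 in wild type, Ces1d from -0.15 to 0.092 in knockout, and Ces1g from -0.17 to 0.24 between genotypes on the atherogenic diet. The cause was not tested.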
